A study of Mus musculus with 2 samples.

Results

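The genes described here are the copies of Mir9 and Mir124a for which each deposited table holds a row: Mir9-2, Mir9-3, Mir124a-1, Mir124a-2 and Mir124a-3. They were chosen by symbol, as 5 of the 1973 miRNA genes counted, and all 5 rows were found. The samples were 2 microRNA-seq libraries of the embryonic facial prominence, the tissue buds that form the face and jaws, from B6NCrl mouse embryos at embryonic day 12.5. Replicate 1 pooled 120 embryos and replicate 2 pooled 88, of both sexes and labelled healthy. The labels give inserts below 30 nucleotides and name no treatment, mutation or second tissue, so levels within 1 tissue and differences between its pools are what can be measured.

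miR-9 and miR-124 are the miRNAs best known from the nervous system. miR-9 acts in neural progenitors, where it lowers regulators such as Hes1 and Nr2e1 (Tlx) and so affects when neurons form. miR-124 is enriched in neurons and lowers the splicing repressor Ptbp1, and its genes are repressed outside the nervous system by REST. Each is made from several genes whose hairpins differ while the mature strands are the same or nearly so.

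That sharing bears on what can be counted, so the sequences of the Mir9 copies come first. RefSeq (GRCm38.p6) had entries for Mir9-2 and Mir9-3 among the 5 genes, and for Mir9-1, the remaining copy of the family. Entries for Mir124a-1, Mir124a-2 and Mir124a-3 were not used. The mature strands are shown with the seed, bases 2 to 8, in capitals, because the seed sets which messages a miRNA pairs with.
mmu-miR-9-5p: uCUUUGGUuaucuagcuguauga
mmu-miR-9-3p: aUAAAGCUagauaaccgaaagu
The seeds of the strands differ, and of the 1679 mature names in the RefSeq table only miR-9-5p itself carried the first and only miR-9-3p the second. Both strands were the same in all 3 copies. The hairpins follow, with the mature strands in capitals, so that the lower-case bases show what sets each copy apart.
Mir9-3 hairpin: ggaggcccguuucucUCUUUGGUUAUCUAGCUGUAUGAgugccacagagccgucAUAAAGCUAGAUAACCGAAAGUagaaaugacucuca
Mir9-2 hairpin: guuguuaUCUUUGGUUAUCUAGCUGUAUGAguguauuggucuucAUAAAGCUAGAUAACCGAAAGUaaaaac
Mir9-1 hairpin: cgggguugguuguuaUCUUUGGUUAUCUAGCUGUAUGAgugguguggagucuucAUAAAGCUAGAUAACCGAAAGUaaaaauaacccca

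A read that fits several places was counted to no gene, so a read of an exact mature miR-9 strand could enter none of these rows. Reads that run past the mature ends can. For Mir9-3, 1 further base at the 5′ end of miR-9-5p was enough to match no other annotated miRNA gene, or 4 bases at its 3′ end. On the other arm, 3 bases before or 2 bases after miR-9-3p were enough. Mir9-2 needed more on each arm apart from the 3′ end of miR-9-5p, where 4 bases were also enough. All 7 bases before miR-9-5p in its hairpin still matched Mir9-1, and its miR-9-3p needed 7 bases before or 6 after.

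The same was measured for all 5 hairpins with GENCODE M21 sequences, by asking for every window of 20 bases whether it also occurs, on either strand, at an annotated miRNA gene elsewhere. Mir9-3 had the most windows of its own, 58 of 71 (81.7%). Mir124a-2 had 60 of 90 (66.7%), Mir124a-1 had 41 of 66 (62.1%), Mir124a-3 had 25 of 49 (51.0%) and Mir9-2 had 25 of 53 (47.2%). The shared windows lay in a pair of blocks in each hairpin. In Mir9-3 these were bases 16 to 41 and 53 to 77, little more than the mature strands. In Mir9-2 they were bases 1 to 33 and 39 to 71, which leaves out a few bases of the loop and the last base.

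**Figure D1:**
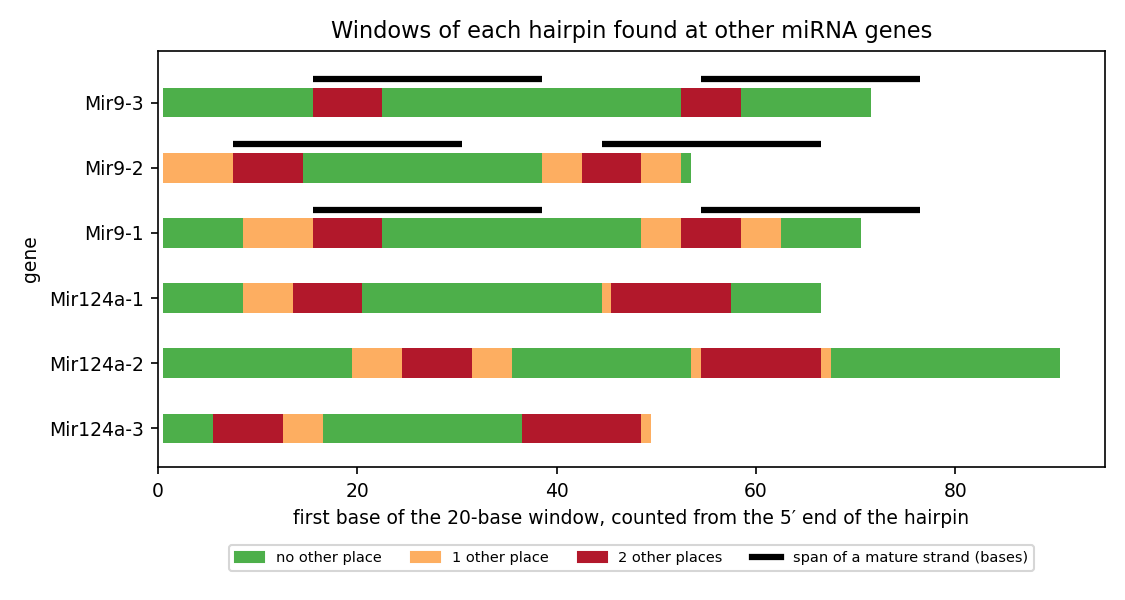
Each row is a hairpin and each coloured step 1 window of 20 bases, placed by its first base; green windows occur at no other annotated miRNA gene, orange at 1 and red at 2 other places. Black bars span the mature strands where RefSeq gives them. Mir9-3 has 58 green windows of 71 and Mir9-2 has 25 of 53.

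The longest stretch common to Mir9-2 and Mir9-3 was 26 bases, and that common to Mir9-1 and Mir9-2 was 33 bases. Among the Mir124a hairpins the longest common stretches were 31 or 32 bases, longer than any insert the labels allow. With windows of 28 bases, near the upper limit of the inserts, 63 of 63 windows of Mir9-3 were its own. For Mir9-2 the count was then 33 of 45, for Mir124a-1 49 of 58, for Mir124a-2 69 of 82 and for Mir124a-3 33 of 41. Longer reads could therefore be placed more often in each gene by its sequence, and in Mir9-3 at every position.

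Mir9-3 (ENSMUSG00000093238.1) was the gene of the 5 with a clear count. It held 79 reads in replicate 1 and 67 reads in replicate 2 on its own strand. Per 1000000 own-strand reads on miRNA genes (CPM), this was 16.7 CPM (exact Poisson interval 13.3 to 20.9) in replicate 1 and 11.3 CPM (interval 8.76 to 14.4) in replicate 2, a mean of 14.0 ± 3.85 CPM (SD, n = 2). CPM are per gene and not per length, since the inserts were not much longer than a mature strand. Detection asked for 10 counts or more in each library (2.12 CPM for replicate 1, 1.69 CPM for replicate 2), and Mir9-3 passed. Mir9-3 lies on chromosome 7, positions 79505264 to 79505353 of GRCm38 (+ strand), in an intron of the noncoding gene Mir9-3hg. It ranked 300 among the 395 detected genes, whose median was 122 CPM. Exact mature miR-9 reads are not in the count of Mir9-3, while 306 detected genes had all windows their own. The level and rank are thus those of reads that could be placed, not of the amount of miR-9.

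Mir9-2 (ENSMUSG00000065424.1), which gives the same mature strands, had 0 reads in both libraries. A count of 0 was taken to allow up to 3 reads, or 0.636 CPM in replicate 1 and 0.506 CPM in replicate 2. The exact Poisson interval used for the other genes reaches 3.69 reads, or 0.782 and 0.622 CPM. The gene lies on chromosome 13, positions 83738814 to 83738885, and overlaps an exon of the noncoding gene C130071C03Rik. Since the mature strands cannot be placed, this 0 limits the reads that carry bases particular to Mir9-2, not the amount of miR-9.

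The Mir124a genes held almost no reads. Mir124a-2 (ENSMUSG00000093073.1; chromosome 3, positions 17795662 to 17795770, exon of Mir124-2hg) had 3 reads in replicate 1 and 4 in replicate 2, or 0.636 CPM (interval 0.131 to 1.86) and 0.675 CPM (interval 0.184 to 1.73). Mir124a-3 (ENSMUSG00000065454.1; chromosome 2, positions 180894040 to 180894107) had 1 read in replicate 1 and 0 in replicate 2. It lies in no annotated gene and shares 3 bases at its end with Gm27032. Mir124a-1 (ENSMUSG00000065597.1; chromosome 14, positions 64590657 to 64590741, exon of Mir124a-1hg) had 0 reads in both. All 3 together gave 4 reads in each library, 0.761 ± 0.122 CPM (SD, n = 2).

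By level, Mir9-3 came first, and its Poisson intervals lay above those of the other 4 genes in both libraries. The order of those 4 is not defined, because their intervals overlap one another. Mir9-3 also had the largest share of windows of its own, and whether that share sets the counts was not tested. Over 1 tissue in bulk, fewer cells that make a miRNA and less of it per cell cannot be told apart either.

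**Figure D2:**
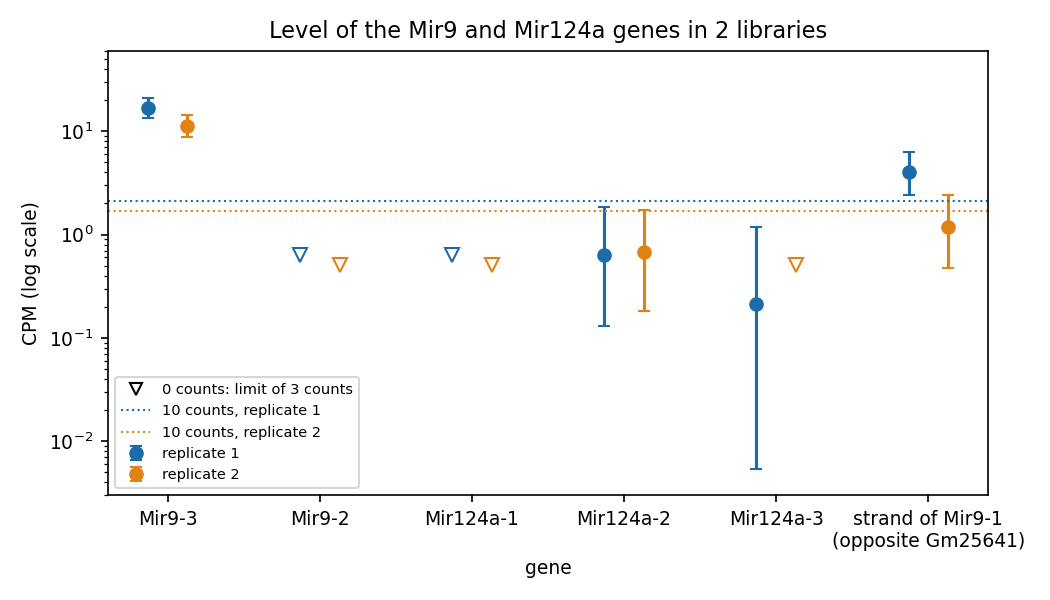
CPM on a log axis for the 5 genes and for the strand of Mir9-1 in replicate 1 (blue) and replicate 2 (orange), with exact Poisson intervals; open triangles mark 0 counts at the limit of 3 counts, and dotted lines mark 10 counts. Mir9-3 lies at 16.7 and 11.3 CPM, and all Mir124a values and Mir9-2 lie under the dotted lines.

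The few reads lay on the annotated strand. Of all reads on the 5 genes, 83 of 84 in replicate 1 (98.8%, exact Clopper-Pearson interval 93.5 to 99.97) and 71 of 73 in replicate 2 (97.3%, interval 90.5 to 99.7) were on it. The reads on the opposite strand, 1 in replicate 1 and 2 in replicate 2, were all at Mir124a-3, which thus had no more reads on its own strand than on the other.

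Mir9-1 enters the tables by another row. No row under its own name was used here, but Gm25641 (ENSMUSG00000092876.1; chromosome 3, positions 88215589 to 88215696, - strand) spans Mir9-1 (positions 88215598 to 88215686, + strand) on the opposite strand. Gm25641 had 0 reads on its own strand in both libraries. On the strand of Mir9-1 it had 19 reads in replicate 1 and 7 reads in replicate 2, or 4.03 CPM (interval 2.42 to 6.29) and 1.18 CPM (interval 0.475 to 2.43). Over Mir9-1 and Mir9-3 together, the strand of Mir9-1 held 19.4% of reads in replicate 1 (exact Clopper-Pearson interval 12.1 to 28.6) and 9.46% in replicate 2 (interval 3.89 to 18.5). These reads were looked up after the own-strand counts were known. The copies are not equally countable, so 19.4% and 9.46% are shares of placed reads, not of the miR-9 each copy makes. For Mir9-1, 8 bases before miR-9-5p were needed to match no other annotated miRNA gene, against 1 for Mir9-3. Around miR-9-3p, Mir9-1 needed 7 bases before or 6 after, against 3 or 2 for Mir9-3. After miR-9-5p, both needed 4.

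The libraries held 11414919 reads (replicate 1) and 12792420 reads (replicate 2), of which 4719337 and 5929220 were own-strand reads on miRNA genes, so that 1 read was worth 0.212 and 0.169 CPM. The 5 genes held 83 reads in replicate 1 and 71 in replicate 2, against 2970119 reads (26.0% of the library) and 3575159 reads (27.9%) that fit several places. The tables do not say which places the uncounted reads fit, so the part that belongs to miR-9 or miR-124 was not measured. Intervals are at 95% confidence and cover counting error only.

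The other copy-sharing genes of the tables give the setting. Of 965 genes with all windows their own, 306 (31.7%) were detected. Of 375 genes with at least 50% but not all windows their own, the class of Mir9-3 and the 3 Mir124a genes, 84 (22.4%) were detected. Of 296 genes with some windows of their own but under 50%, the class of Mir9-2, 2 (0.676%) were detected. Of the 258 genes with no window of their own, 3 (1.16%) were. These shares also carry which genes the tissue expresses, and that part was not tested.

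Families of numbered copies show how uneven counts of copies can be. There were 45 families whose symbols differ only in a final -1, -2 or -3, of which 30 had any count and 24 had a detected copy. By summed level, Mir9 ranked 21 with 14.0 ± 3.85 CPM and Mir124a ranked 28 with 0.761 ± 0.122 CPM (SD, n = 2 each). The highest were Mir92 (6125 CPM), Mir125b (3525 CPM) and Mir181b (3188 CPM), and the lowest with any count was Mir133a of striated muscle (0.0843 CPM), next to 15 families at 0. Of the reads on Mir9-2 and Mir9-3, the rows of that family, Mir9-3 held 100%, reads on the strand of Mir9-1 not included. Of those on the Mir124a rows, Mir124a-2 held 87.5%. The median share of the leading copy over the 30 families was 84.0%, and in 5 families it was 100%. Besides Mir9, those 5 were Mir297a, Mir466b, Mir467a and Mir133a, all with few reads and no detected copy. In 21 of the 30 families the leading copy was also the one with the largest share of windows of its own, ties included. Mir9 and Mir124a are among the 21, but the lead in Mir124a rests on 4 reads per library and is not defined. Most of these families have 2 copies, so many such matches would arise without a link, and a link was not tested.

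By RefSeq, 4 of these families share both mature strands exactly: Mir9, Mir199a, Mir344h and Mir7676. For 10 of the 45 families, Mir124a among them, this was not assessed. Families for which RefSeq does not list both strands of each copy could not be counted among the 4 either. Mir344h and Mir7676 had 0 reads. Mir199a is known from mesenchyme. Mir9-3 had 81.7% of windows of its own, against 82.4% for Mir199a-2, which stood at 222 and 278 CPM in replicates 1 and 2. Mir9-2, with 0 reads, had 47.2%, against 66.7% for Mir199a-1, which stood at 23.9 and 30.7 CPM. The lower copies thus differ in their shares of windows as well as in their counts, and the part of either in the levels was not tested.

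**Figure D3:**
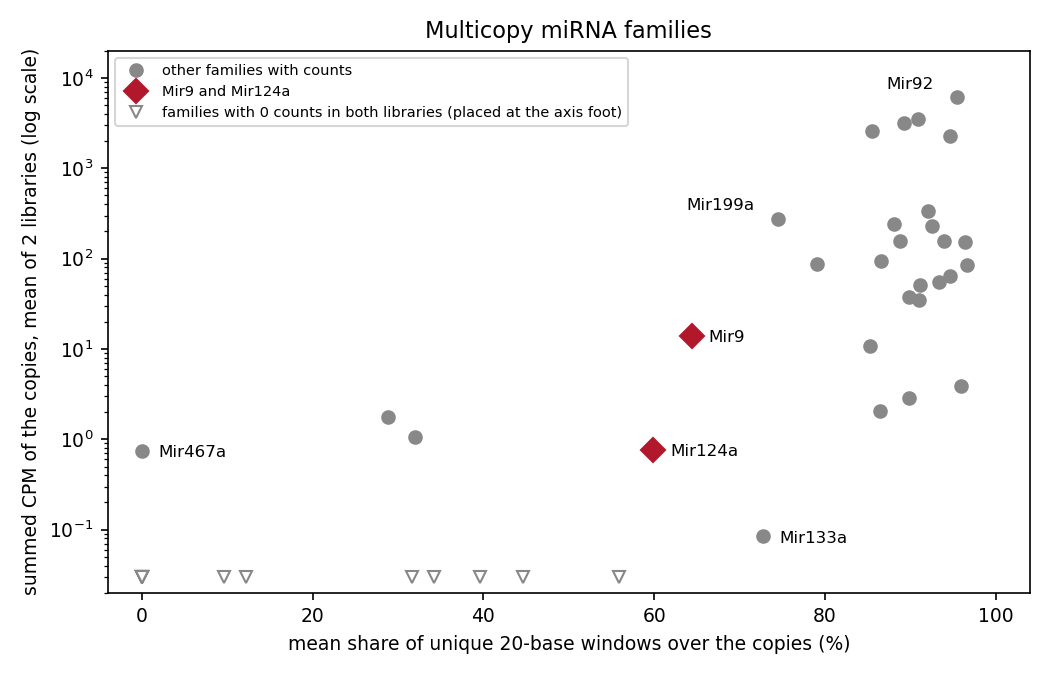
Summed CPM of each multicopy family (log axis, mean of 2 libraries) against the mean share of 20-base windows found in no other miRNA gene. Mir9 (14.0 CPM) and Mir124a (0.761 CPM) are red diamonds, and Mir199a, at 277 CPM, lies above both.

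Other miRNA genes, from a list of those known from neural or neuroendocrine cells, were mostly detected. Of the 22 in the list besides the 5 genes, 21 were detected, against 395 of 1894 genes (20.9%) over the tables. This was not particular to the neural list. All genes of the mesenchyme and cartilage, epithelium, sensory epithelium, skeletal muscle and erythroid lists described below were detected. The levels of the 22 ran from 1.76 CPM, in the gene that was not detected, to 789 CPM, and their median of 76.5 CPM lay under the median of 122 CPM over all detected genes. Mir137, which acts in neuronal differentiation, stood at 789 ± 6.96 CPM and Mir375 of neuroendocrine cells at 745 ± 14.2 CPM. Mir138-1 (186 ± 12.1 CPM), Mir132, which responds to neuronal activity (154 ± 21.1 CPM), Mir128-1 (151 ± 25.1 CPM), Mir138-2 (148 ± 11.2 CPM), Mir153 (145 ± 15.6 CPM), Mir7-1 (122 ± 0.768 CPM) and Mir7b (103 ± 16.7 CPM) completed the 9 genes at or above 100 CPM (SD, n = 2 each). Mir9-3 stood between Mir212 (16.2 ± 1.01 CPM) and Mir218-1 (12.7 ± 0.972 CPM), and its SD covers both. The one listed gene beyond the 5 that was not detected was Mir129-1, with 11 and 7 reads.

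All 10 listed genes whose windows were all their own were detected. Of the 17 that share a window, 12 were detected, and 4 of the 5 that were not are Mir9-2 and the Mir124a genes. Without the 5 genes described here, 11 of 12 listed genes that share a window were detected. Mir9-2 and the Mir124a genes also had the smallest shares of windows of their own in the list, 47.2% to 66.7%. Mir9-3 had 81.7% and Mir129-1 had 83.3%. Whether these shares set the counts was not tested. The whole list held 0.324% of own-strand reads in replicate 1 and 0.309% in replicate 2. The lists of mesenchyme with cartilage and of epithelium, the tissues of the facial prominence, held more. The 4 genes of the mesenchyme and cartilage list, led by Mir214, held 6.44% and 6.39%, and the 7 epithelial genes held 3.08% and 3.58%, all of them detected. A window was shared by 1 of those 4 and 0 of those 7 genes, against 17 of the 27 neural genes. Reads that fit several places are in none of these sums, so the neural sum leaves out exact mature miR-9 strands. By RefSeq, the copies of Mir7, Mir128, Mir129, Mir138, Mir218 and Mir219a also have at least 1 mature strand in common. Exact reads of such a strand enter neither these sums nor the levels given for those genes. The sums therefore do not give the make-up of the tissue. The mesenchyme and cartilage list does not hold the Mir199a genes, of which Mir199a-1 (27.3 CPM) lay under the neural median. The 3 genes of sensory epithelium held 3.14% and 2.95%. The skeletal muscle list (0.108% and 0.150%) and the erythroid list (0.0223% and 0.0331%) held less than the neural list.

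**Figure D4:**
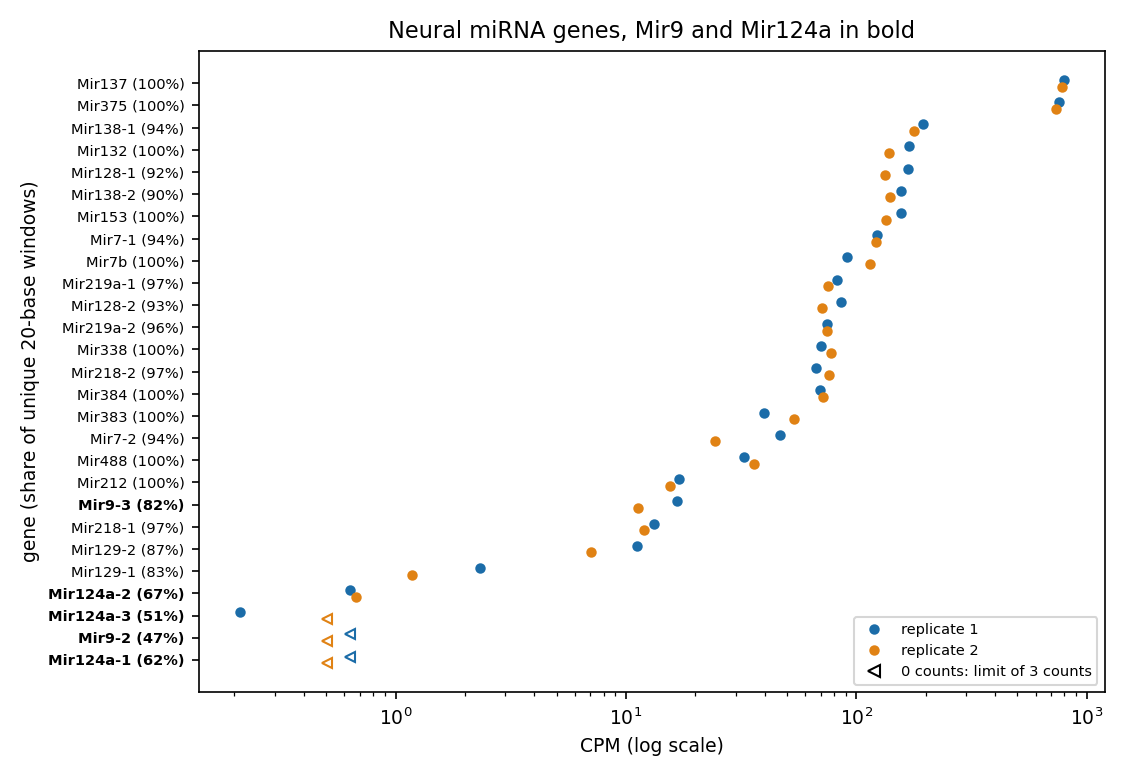
CPM on a log axis of each listed neural gene in replicate 1 (blue) and replicate 2 (orange), sorted by mean, with the share of its own 20-base windows in parentheses; open triangles mark 0 counts at the limit of 3 counts. The 4 lowest rows are Mir124a-2, Mir124a-3, Mir9-2 and Mir124a-1, and Mir9-3 lies at 16.7 and 11.3 CPM.

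Between the pools, Mir9-3 was higher in replicate 1, 1.49-fold, which is a log2 difference (replicate 1 over replicate 2) of 0.57, with an exact interval from 0.08 to 1.06. In a two-sided exact binomial test over the 395 detected genes, with Benjamini-Hochberg adjustment, its adjusted p was 0.0384. It did not reach the 2-fold size also required for a call. By that rule 16 of 395 genes (4.05%) were called, while the adjusted p alone was under 0.05 for 205 genes (51.9%). A ratio at least as large in size as that of Mir9-3 was found for 58 genes (14.7%), and the median size over all genes was 0.23. With no count minimum the adjusted p of Mir9-3 was 0.0730, and edgeR's exact test with a spread between pools of 0.2 gave an adjusted p of 1.00. The test compares these libraries and covers counting error alone.

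Mir124a-2 had a log2 ratio of -0.08, with an interval of -2.85 to 2.48, so a several-fold difference either way was not detectable at this depth. The reads on the strand of Mir9-1 had a log2 ratio of 1.78 (interval 0.46 to 3.27, 19 against 7 reads). Mir9-3 and that strand were thus both higher in replicate 1. Of the 22 detected genes of the neural list, 16 were higher in replicate 1, with a median of 0.13, against 198 of all 395 detected genes (50.1%) and a median of 0.00. Mir9-3 is among the 16, and without it 15 of 21 were higher, with a median of 0.13. Several listed genes are copies of one another, and the direction of the list was not tested. None of the 22 was called. The largest ratio among them was that of Mir7-2, 0.95.

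The detected genes nearest to Mir9-3 over the 2 libraries, by mean absolute difference of log2(CPM + 1), were Mir6538 (0.039), Mir3058 (0.136), Mir216a (0.154), Mir7654 (0.162) and Mir1968 (0.186). Mir6538 had 80 reads in replicate 1 and 64 in replicate 2, within 3 reads of Mir9-3 in each. All windows of these 5 genes were their own, unlike those of Mir9-3. With 2 libraries this likeness is one of level, and many genes of low level would come close.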

How the data were processed

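For each library the authors deposited raw read counts for miRNA genes, without normalisation or pooling. Per the labels' file descriptions, the reads were aligned to mm10 and the annotation was GENCODE M4. Aligner, counter and trimming are not given in the sources used here. The columns are both strands, the gene's own strand (taken as the one with 96.8% and 96.7% of gene reads) and the opposite strand. Rows of unmapped, multiply mapped and unassigned reads were kept out of library sizes.

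Symbols and positions came from GENCODE M21 (GRCm38), which matched 1894 of 1973 identifiers. Of the 5 genes, 2 carry another identifier version there, so their bounds in M4 may differ. No genome was used: windows were searched among GENCODE M21 miRNA genes. CPM use own-strand sums. The exact binomial test used TMM library sizes (edgeR 4.0.16, R 4.3.3; scipy 1.17.1). It was tried on simulated counts with counting error only, which is what the test assumes. That run could not show how the test behaves with further variation between pools. Size factors were also taken from DESeq2 1.42.0. With 1 library a side, edgeR's quasi-likelihood test could not be fitted. Named genes were the 5 genes, those overlapping them, the 5 nearest in level, the neural list (values at or above 100 CPM) and the extreme or identical families. Some further genes of the neural list were named after their values were seen. The genes and lists were chosen with earlier results of these data known.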

Additional observations from a re-analysis of the deposited data

Results flagged for a closer look

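Reads on the strand of Mir9-1 were flagged as data that the own-strand comparisons do not use. The row of Gm25641, the gene opposite to Mir9-1, held 19 such reads in replicate 1 and 7 in replicate 2. These counts lie above the 3 reads that a count of 0 was taken to allow. Gm25641 had 0 reads on its own strand. Of the 9 rows with opposite-strand reads in both libraries and no own-strand reads, Gm25641 ranked 8 by level. The median of these rows was far higher, 9889 opposite-strand reads in replicate 1 and 15292 in replicate 2.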

How the results depend on the processing

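Per 1000000 mapped reads, the summed level of the 5 genes was 8.34 CPM and that of Mir9-3 7.91 CPM, and per 1000000 reads of all kinds they were 6.41 and 6.08 CPM, in place of 14.8 and 14.0 CPM, by construction of the larger denominators. With a minimum of 1 count 2 of the 5 genes were detected, and with 100 counts 0, in place of 1. Reads that fit several places made up 34.8% of mapped reads, in place of 27.0% of all reads. edgeR's exact test with a fixed coefficient of 0.2 called 2 genes in place of 16. By construction it allows for a spread between pools, which the binomial test leaves out. With 1 library left out, the summed level ran from 12.0 to 17.6 CPM and Mir9-3 from 11.3 to 16.7 CPM. The other alternatives (both strands, TMM, DESeq2 size factors, window lengths of 18 to 28 bases and, added after seeing the data, all transcripts and the reads of Mir9-1) moved no level beyond its SD and no count beyond 1.5 times, and Mir9-3 stayed uncalled in each test run. The search of a whole genome was not run. Leaving out a library ends the comparison between libraries, and the other results kept within those limits. No paired analysis was possible because there is 1 group. Depth limits the genes with 4 reads or fewer.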
